A study of Mus musculus with 4 samples.

Results

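The hepatic transcriptome of interval-trained, vehicle-treated mice (VI) was compared with that of sedentary, vehicle-treated mice (VS). These were 2 of the 4 RNA libraries of the series, and each was made from the pooled livers of 4 mice. Of 35275 genes listed in the count table, 9030 reached 5 CPM (read counts relative to the scaled library total) in VI or VS. Setting aside 15 skeletal muscle genes, which were abundant in the VS library, left 9015 genes.

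All mice were female and 26 weeks old. The labels give the strain AKR/J and the genotype Apoa2c congenic, and the study describes them as R1.P1-Apoa2c, a line that carries the amyloid-prone c allele of Apoa2. Apoa2 encodes apolipoprotein A-II, the protein that forms the amyloid fibrils of this model. VS and VI mice received vehicle injections, whereas the sedentary FS and interval-trained FI mice received amyloid fibrils. Training lasted 16 weeks and alternated fast and slow treadmill running, and organs were taken within a day of its end. Because each group was 1 pooled library, the spread between mice was not measured and no test was made. The 95% intervals given with log2 ratios (VI over VS) cover counting error only, and 1 unusual mouse in a pool could not be recognised.

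The liver keeps blood glucose steady during exercise by releasing glycogen and by making glucose from lactate, glycerol and amino acids. It also secretes the acute phase proteins of plasma, which interleukin-6 and glucocorticoids are known to induce. Its sterol synthesis is set by the transcription factor SREBP2, its cytosolic chaperones by HSF1, and many of its enzymes follow a daily clock.

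The libraries held 23442935 (VS) and 24524287 (VI) counted reads. Hepatocyte genes dominated both libraries, as the liver label requires. Albumin (Alb) took 12.1% of the VS counts and 12.3% of the VI counts. Of 12 hepatocyte markers 11 differed by less than 1.5-fold between the libraries, as did 8404 of all 9015 genes. The summed level of 113 skeletal muscle genes reached 253 CPM in VS and 134 in VI, against 88.6 and 99.2 CPM in the fibril-treated FS and FI libraries. Of the 113, 97 had a higher level in VS than in VI. The level filter admitted 15 of them, 13 higher in VS, but a gene high in VS alone passes that filter. Alpha-actin of muscle (Acta1) was at 19.3 CPM in VS and 2.63 in VI, and the fast myosin Myh4 at 6.69 and 0.0411.

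Transcripts of stratified squamous epithelium were found almost wholly in VI. This list of 26 genes was chosen after the counts had been seen. In VI 17 of the 26 had reads, 482 reads in all, against 0 reads in VS, 10 in FS and 1 in FI. The keratins of oral and oesophageal lining, Krt4 and Krt13, had 165 and 130 reads in VI and 0 in each of the other libraries. Set against an assumed floor of 3 reads in VS, Krt4 was 53.4-fold higher and Krt13 42.1-fold higher. These folds leave out the counting error of the VI reads. The counting intervals of the log2 ratios had lower bounds of 5.42 for Krt4 and 5.08 for Krt13, which are smaller rises than those folds. Trp63, the master regulator of that epithelium, had 2 reads, and Krt1, Krt6a, Ivl, Dsg3 and Dsc3 had 0. The part of muscle and of squamous RNA in the results below was not tested.

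**Figure D1:**
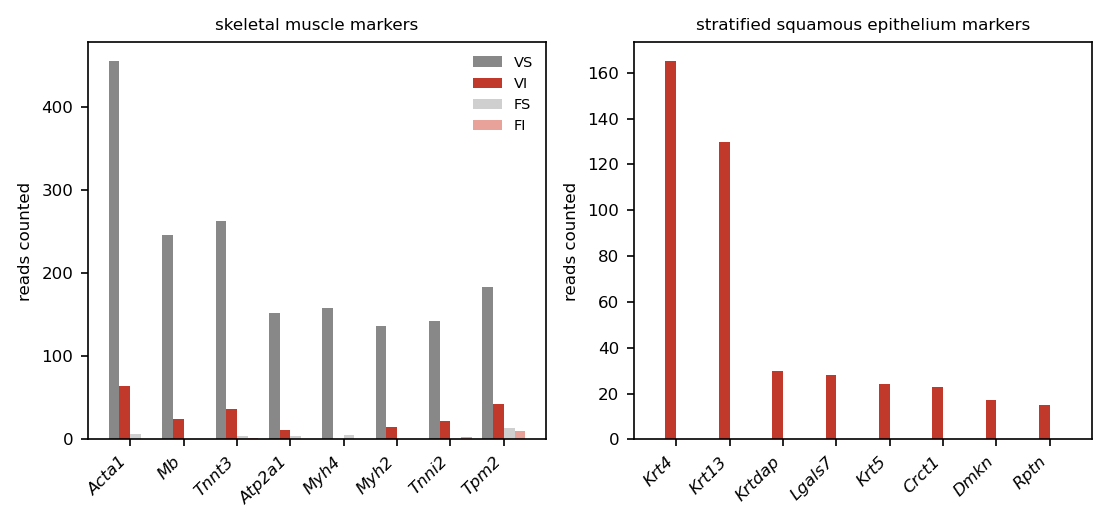
Reads counted for 8 skeletal muscle markers (left) and 8 stratified squamous markers (right) in each of the 4 libraries, 1 bar a library. Muscle reads were highest in VS, and all the squamous reads shown were in VI.

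Against this background, 123 of 9015 genes (1.36%) differed by more than 2-fold, 69 higher in VI (0.765%) and 54 lower (0.599%). Without the squamous list the rises numbered 67. More than 1.5-fold separated 611 genes (6.78%), 306 of them higher in VI (3.39%) and 305 lower (3.38%). The median log2 ratio of all genes was 0.01, and 90% of the transcriptome lay between -0.50 and 0.51 on the log2 scale. A ratio above 0 was seen in 52.2% of genes and one below 0 in 47.8%. The counting interval excluded 0 for 4718 genes.

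**Figure D2:**
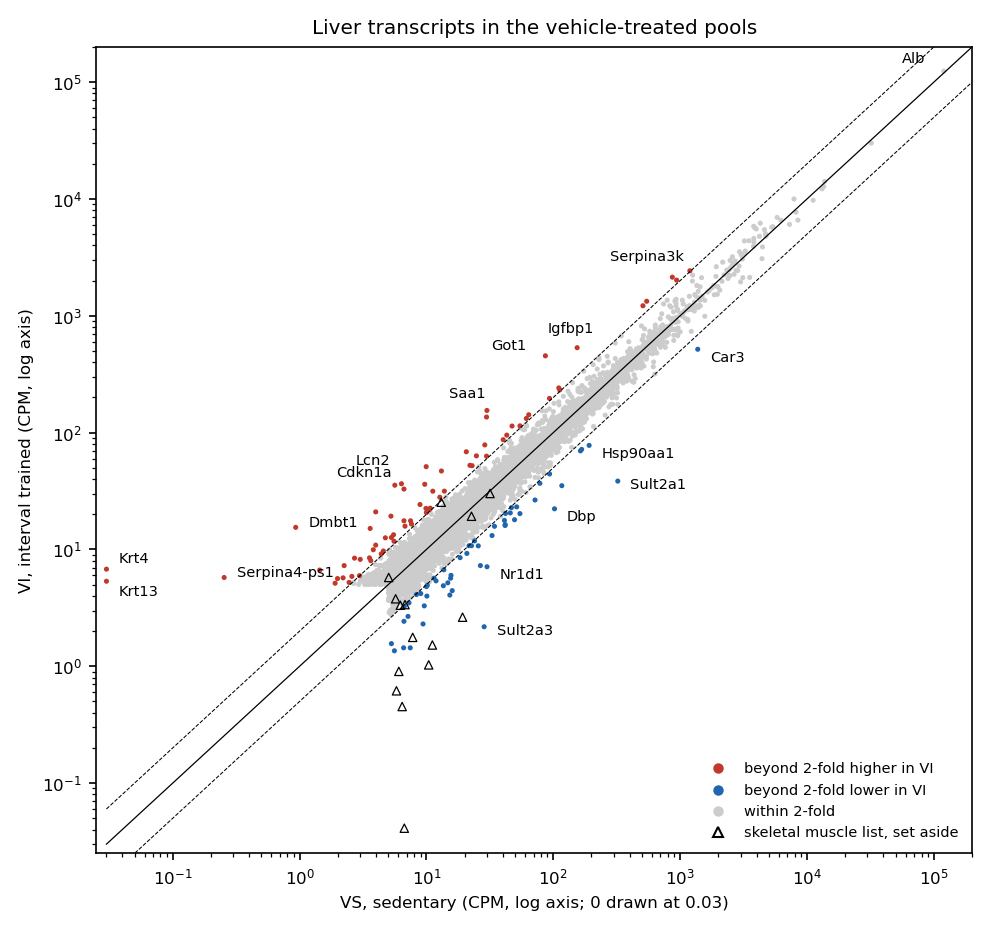
Each point is a gene, with its level in VS on the x axis and in VI on the y axis (CPM, log axes). The solid line marks equality and the dashed lines 2-fold; red and blue points lie beyond them, 69 above and 54 below, and open triangles are the muscle genes set aside.

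Ranked by the interval bound nearer to 0, the rises began with Krt4 and Krt13, followed by Dmbt1 and Serpina4-ps1. Dmbt1, which encodes a secreted glycoprotein of epithelia, had 22 reads in VS and 376 in VI, with 2 in FS and 81 in FI. The pseudogene Serpina4-ps1 had 6 and 140 reads. Next came Cdkn1a and Got1. Cdkn1a, which encodes the cyclin-dependent kinase inhibitor p21 (chr17:29090979-29100722 in mm10), was at 5.63 CPM in VS and 35.5 in VI, a log2 ratio of 2.65 (95% interval 2.39 to 2.93). Got1, cytosolic aspartate aminotransferase (chr19:43499752-43524605), was at 86.6 CPM in VS and 454 in VI, a 5.25-fold rise (log2 ratio 2.39, 95% interval 2.32 to 2.46). Lcn2, which encodes the iron-siderophore binding protein lipocalin-2, stood at 6.35 CPM in VS and 36.5 in VI. Nnmt, which methylates nicotinamide, had 94 reads in VS and 510 in VI (log2 ratio 2.39).

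Gadd45g, a growth arrest gene, was at 6.65 CPM in VS and 32.9 in VI. Ddit4, an inhibitor of mTORC1 signalling, was at 3.60 and 15.1 CPM. Igfbp1, a secreted binding protein for insulin-like growth factors that insulin represses, was at 154 and 533 CPM, and Lepr, the leptin receptor, at 13.1 and 46.9 CPM. Plin4, a coat protein of lipid droplets, was at 5.25 and 19.3 CPM. Others among the 20 largest rises were Ppp1r10, a nuclear regulator of protein phosphatase 1 (20.6 and 68.6 CPM), and the transporter gene Slc45a3 (28.8 and 78.5 CPM).

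Sulfotransferases, the clock genes Dbp and Nr1d1 and major urinary protein genes headed the falls, 5 of the last among the 20 largest. Of the last, Mup-ps2, Mup-ps4, Mup-ps10 and Mup-ps13 were under 5 CPM in VI (1.44, 1.44, 4.07 and 4.44). They passed the level filter through VS only, which favours falls, and reads may be split among the urinary protein copies. Sult2a1, which sulfates bile acids and steroids and is expressed far more in female than in male mouse liver, was at 322 CPM in VS and 38.5 in VI, an 8.38-fold fall (log2 ratio -3.07, 95% interval -3.17 to -2.97). Sult2a3 was at 28.5 and 2.18 CPM and Sult2a5 at 54.6 and 20.3 CPM. Because the copies are nearly identical, reads may be divided among them and each single value is uncertain. The 5 Sult2a members that passed the filter were all lower in VI, with Sult2a2 (log2 ratio -0.90) and Sult2a6 (-0.55) within 2-fold. Among the other sulfotransferases, Sult1d1 (0.60) and Sult3a1 (0.71) were higher.

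Lipid genes followed. G0s2, an inhibitor of adipose triglyceride lipase, was at 117 CPM in VS and 35.1 in VI (log2 ratio -1.73), while Pnpla2, the lipase itself, was at 77.6 and 118 CPM. Cd36, a fatty acid translocase, was at 71.8 and 26.5 CPM. Car3, a carbonic anhydrase of liver, fat and muscle, was at 1377 and 517 CPM and gave the only fall beyond 2-fold among the 10 largest losses of CPM. Fitm1, known mainly from muscle, was at 5.59 and 1.36 CPM. Cd36, Car3 and Fitm1 are all expressed in skeletal muscle, whose marker sum was 253 CPM in VS and 134 in VI, and the part of muscle RNA in these falls was not tested. Serpinb1a, a protease inhibitor, was at 9.40 and 2.30 CPM.

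**Figure D3:**
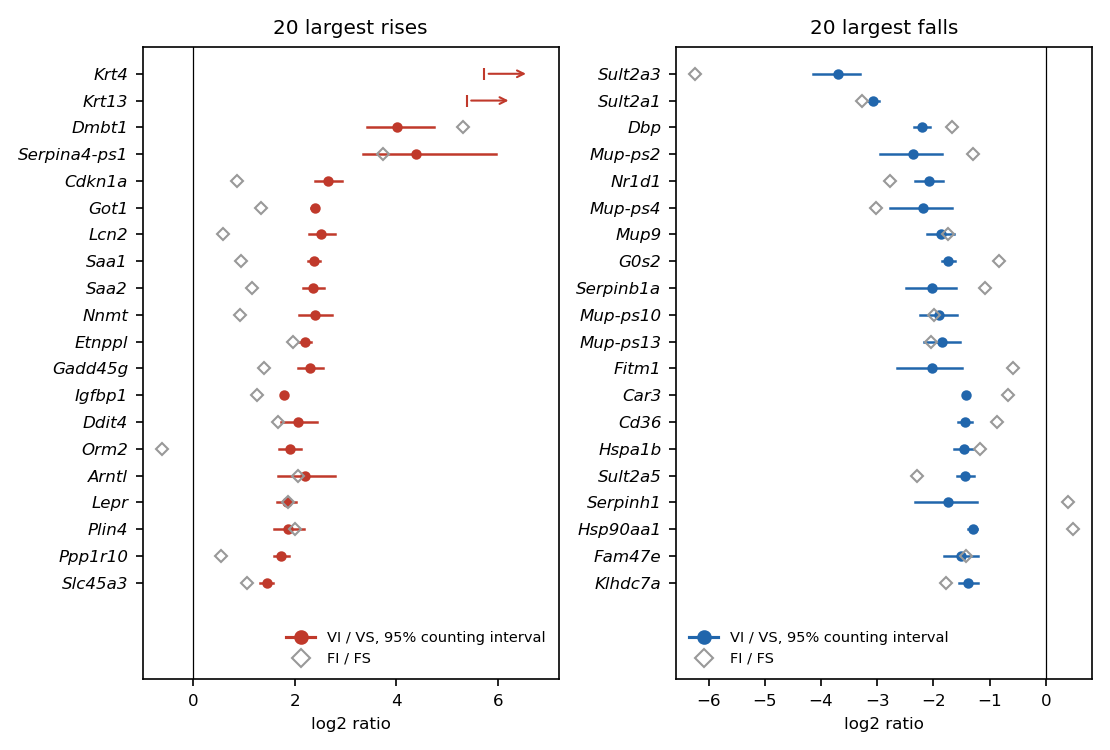
Log2 ratios of the 20 largest rises (left) and 20 largest falls (right), ordered by the interval bound nearer to 0. Filled points are VI over VS with 95% counting intervals, and open diamonds FI over FS. Arrows mark Krt4 and Krt13, which had no reads in VS. Only Orm2 on the left and Serpinh1 and Hsp90aa1 on the right have diamonds on the other side of 0.

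Acute phase genes were higher in VI as a group. Of 30 measured members, 26 were higher and 4 lower, with a median log2 ratio of 0.55 against 0.01 for all genes. Of these, 6 rose beyond 2-fold (0.765% of all genes did) and 14 lay beyond 1.5-fold upwards (3.39%), whereas 1 lay beyond 1.5-fold downwards (Steap4, a metalloreductase, log2 ratio -0.75).

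The serum amyloid A genes Saa1 and Saa2, whose proteins travel on high-density lipoprotein, were at 30.0 and 9.95 CPM in VS and at 155 and 51.1 CPM in VI. Their near-identical sequences make the split between them uncertain, but both rose by close to the same factor (5.16-fold and 5.13-fold). Saa3 (-0.04) and the constitutive Saa4 (-0.05) differed little. The orosomucoid Orm2 rose from 9.70 to 36.1 CPM, and Orm1, the abundant copy, was at 343 and 673 CPM. Serpina3k, a serine protease inhibitor of plasma, rose from 868 to 2141 CPM, and Il1r1, the interleukin-1 receptor, from 43.0 to 95.2 CPM.

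The most abundant acute phase transcripts were higher by less than 2-fold. Hemopexin (Hpx), which binds free haem, was at 3799 CPM in VS and 5842 in VI. The fibrinogen chains Fga, Fgb and Fgg had log2 ratios of 0.54, 0.48 and 0.45. Lrg1 (0.93), Apcs (0.93), Serpina3m (0.95), Cd14 (0.69) and Lbp (0.65) also lay beyond 1.5-fold. Hamp, which encodes the iron hormone hepcidin, was at 740 and 1262 CPM. Haptoglobin (Hp, 0.33) and C-reactive protein (Crp, -0.17) were nearer to 0. Among transcripts of the signalling pathway itself, Stat3 was level at 0.02, while Socs3 and Il6ra were higher by less than 1.5-fold, at 0.35 and 0.30.

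Complement genes lay in the same direction. Of 21 members 14 were higher, 0 beyond 2-fold (0.765% of all genes were), with a median of 0.23. Beyond 1.5-fold lay 3 (3.39% of all genes rose so far): C8a (229 and 422 CPM), C8b (85.6 and 138) and C4a (18.5 and 28.1). C3, the central component, was the second largest gain in CPM after albumin, from 7895 to 9999.7 CPM. Of 729 Reactome sets ranked by their median, regulation of the complement cascade had the highest median (0.31), and the complement cascade set had 0.26. Coagulation factors had a median of 0.05 with 0 of 21 beyond 1.5-fold (6.78% of all genes were). Kupffer cell markers were higher for 12 of 14 genes with a median of 0.21, and the Langerin gene Cd207 fell from 7.15 to 2.67 CPM. In bulk liver, more cells of a type and more RNA per cell cannot be told apart. None of the neutrophil, lymphocyte or adipose markers reached the level filter.

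Glucocorticoid-responsive genes were higher for 15 of 18 members, with a median log2 ratio of 0.42. Of these, 2 rose beyond 2-fold (0.765% of all genes) and 7 lay beyond 1.5-fold upwards (3.39%), with 0 downwards. Tat, tyrosine aminotransferase, went from 938 to 2019.9 CPM, and Lpin1, a phosphatidate phosphatase and coactivator of fat oxidation, from 111 to 241. The metallothioneins Mt1 and Mt2, which bind zinc, had log2 ratios of 0.83 and 0.78. Fkbp5 and Zbtb16, commonly used reporters of the glucocorticoid receptor, had 0.59 and 0.77. Nr3c1, the receptor gene, was at 87.6 and 81.6 CPM.

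Genes of amino acid catabolism differed one by one rather than as a block. Of 40 amino acid catabolism genes 23 were higher and 17 lower, with a median of 0.08. However, 10 lay beyond 1.5-fold upwards (3.39% of all genes did), 5 of them beyond 2-fold (0.765%). Beyond 1.5-fold downwards lay 0 (3.38%). The 5 were Got1, Etnppl (29.8 and 136 CPM), Tat, Csad (93.3 and 196 CPM) and Sds (54.6 and 114 CPM). Etnppl breaks down phosphoethanolamine, Csad makes the taurine precursor hypotaurine, and Sds turns serine into pyruvate. Aass for lysine (0.76), Gldc for glycine (0.92), Prodh for proline (0.65) and Hal for histidine (0.60) were also higher. Tdo2, which breaks down tryptophan, had 0.24.

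In gluconeogenesis 10 of 13 genes were higher, with a median of 0.24. The 2 beyond 2-fold (0.765% of all genes rose so far) were Got1 and Sds. The Reactome gluconeogenesis set of 26 tested genes had 13 higher and 13 lower, with a median of -0.02. G6pc, the glucose-6-phosphatase that releases glucose, was at 206 CPM in VS and 382 in VI (log2 ratio 0.89), and its coactivator gene Ppargc1a had 259 and 485 reads (log2 ratio 0.86, 95% interval 0.64 to 1.08). Pck1, which was at 3809.6 CPM in VS, differed by 0.17 only, and Fbp1 by -0.12. Pdk4, which shuts pyruvate dehydrogenase, was at 26.0 and 51.0 CPM. On the side of glucose use, Pklr, the liver pyruvate kinase, was at 60.9 and 30.7 CPM. Ass1 of the urea cycle rose from 1193 to 2429 CPM, Asl and Arg1 had 0.72 and 0.56, and Otc had -0.27.

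**Figure D4:**
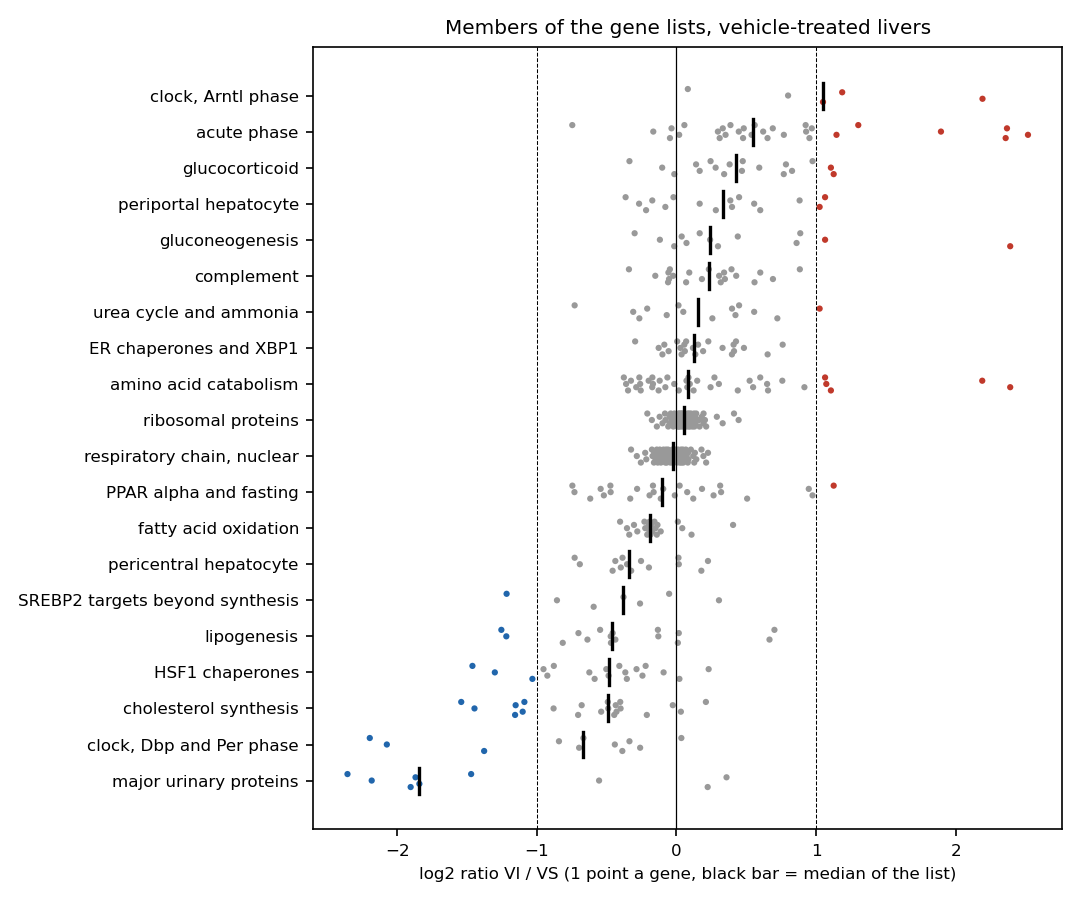
Log2 ratios (VI over VS) of the members of 20 gene lists, 1 point a gene, with a black bar at each list's median. Dashed lines mark 2-fold; red and blue points lie beyond it. Clock genes of the Arntl phase and acute phase genes sit to the right of 0, and sterol synthesis, HSF1 chaperones and genes of the Dbp and Per phase to the left.

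Genes of sterol synthesis were lower in VI nearly throughout the pathway. Of 21 members 19 were lower, 6 beyond 2-fold (0.599% of all genes were) and 9 beyond 1.5-fold (3.38%), with a median log2 ratio of -0.49. In the early, isoprenoid part, Idi1 fell from 9.61 to 3.29 CPM and Fdps from 51.4 to 23.1, and Mvk was at 14.7 and 7.97. In the later, sterol part, Sqle fell from 9.02 to 4.19 CPM, Cyp51 from 45.8 to 20.5, Msmo1 from 78.4 to 36.8 and Nsdhl from 15.5 to 5.67. Hmgcs1, a synthase of the early part, was at 115 and 117 CPM. Reactome's cholesterol biosynthesis set had the lowest median of the 729 sets (-0.52).

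Of 7 other SREBP2 targets 6 were lower, with a median of -0.38. Dhcr7 and Lss of the synthesis list had -0.70 and -0.68. Stard4, a sterol carrier, was at 94.6 and 52.3 CPM. Insig2, which holds SREBP in the endoplasmic reticulum, rose from 64.1 to 142 CPM, whereas Insig1 was at 207 and 159. The bile acid enzyme Cyp7a1 was level at 114 and 112 CPM.

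SREBP2 is known to act with NF-Y, a factor that binds the CCAAT box. The 250 bases before each RefSeq start site (GRCm38.p6) were searched for CCAAT on both strands. A gene with several start sites was counted if any of its windows matched. The box was in 15 of the 16 sterol synthesis genes with a promoter in that table (93.8%), against 39.9% of 7162 tested genes. It was also in 7 of 9 promoters of the Dbp and Per phase (77.8%), 3 of 4 of the Arntl phase, 10 of 16 glucocorticoid (62.5%) and 17 of 30 amino acid catabolism promoters (56.7%), and in 5 of 24 acute phase promoters (20.8%). The window of Nsdhl (chrX:72918271-72918520, plus strand) is shown since that gene fell and has 2 matches, in capitals, both read on the opposite strand.
Nsdhl: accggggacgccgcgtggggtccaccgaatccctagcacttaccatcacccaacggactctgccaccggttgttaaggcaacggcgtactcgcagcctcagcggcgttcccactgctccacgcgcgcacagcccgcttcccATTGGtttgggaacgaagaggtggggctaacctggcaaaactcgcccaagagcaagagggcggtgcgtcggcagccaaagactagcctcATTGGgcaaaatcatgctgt

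Most genes of fatty acid synthesis were also lower, 12 of 16 with a median of -0.46, and 5 fell beyond 1.5-fold (3.38% of all genes did). The summed level of the list was nearly the same, 4170 CPM in VS and 4190 in VI. Mid1ip1 (25.6 and 10.7 CPM), whose product activates acetyl-CoA carboxylase, and Thrsp (167 and 71.9 CPM), whose product binds that of Mid1ip1, fell beyond 2-fold. Elovl6, which lengthens fatty acids, had -0.81. Srebf1 was at 284 and 175 CPM and Fasn at 162 and 104. Scd1, the stearoyl-CoA desaturase, went the other way at 1249 and 1983 CPM, as did Acacb (34.3 and 55.8 CPM), whose product, malonyl-CoA, restrains fat oxidation.

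Fatty acid oxidation genes were lower by small steps, 20 of 24 with a median of -0.19. Beyond 1.5-fold lay 0 of them (6.78% of all genes did). Targets of PPARα were divided. Fabp1 was at 3536 and 2130 CPM, and Bdh1, an enzyme of ketone body metabolism, at 614 and 366. Against these, Pdk4, Lpin1 and Plin5 (60.7 and 117 CPM) were higher. The median of the 26 genes was -0.10. Nuclear genes of the respiratory chain had a median of -0.03 with 0 of 74 beyond 1.5-fold (6.78% of all genes were).

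Chaperones under HSF1, a list that includes the mitochondrial Hspd1 and Hspe1, were lower in VI for 17 of 19 genes, with a median of -0.49. Of these, 3 fell beyond 2-fold (0.599% of all genes did) and 8 lay beyond 1.5-fold downwards (3.38%). Hspa1b, an inducible HSP70, fell from 49.5 to 18.0 CPM, and it shares near-identical sequence with Hspa1a, so its value is uncertain. Hsp90aa1, the inducible HSP90, fell from 192 to 77.7 CPM (log2 ratio -1.30, 95% interval -1.38 to -1.22). The small heat shock protein Hspb1 (chr5:135887919-135889563) fell from 13.7 to 6.70 CPM, resting on 324 and 163 reads (log2 ratio -1.03, 95% interval -1.31 to -0.76). By quantitative PCR on individual mice, the study reports the other direction, with liver Hspb1 mRNA higher in VI than in VS. For Hspa1b, the study's quantitative PCR showed no change with training in the liver. The co-chaperones Stip1, Hsph1 and Fkbp4 had -0.93, -0.95 and -0.88. The constitutive and abundant members were lower by less, with Hspa8 at 1153 and 901 CPM and Hsp90ab1 at 957 and 675. Bag3 (0.23) and Hspb8 (0.02) were the 2 members not lower. Among Reactome sets, HSF1-dependent transactivation had 12 of 16 genes lower (median -0.25), whereas regulation of the HSF1 response had 28 of 41 higher (median 0.13). Serpinh1, the collagen chaperone, fell from 5.29 to 1.56 CPM.

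Hspb1 is also abundant in skeletal muscle, whose RNA was highest in VS, and its muscle share was not tested. Cryab, another small heat shock protein of muscle, had 3.60 CPM in VS and 2.05 in VI, below the level filter. Quantitative PCR in the study showed no change of liver Cryab mRNA with training.

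HSF1 binds repeats of nGAAn, and the inverted pair GAANNTTC was searched as its core. It was in 6 of 15 promoters of the list (40.0%) and in 6.16% of all 7162. Hspd1 and Hspe1, which share 1 bidirectional promoter, count as 2 of the 6. The windows of the pair of inducible genes below are printed to show the matches, which are in capitals (Hspa1b, chr17:34959239-34959488, minus strand; Hspb1, chr5:135887669-135887918, plus strand).
Hspa1b: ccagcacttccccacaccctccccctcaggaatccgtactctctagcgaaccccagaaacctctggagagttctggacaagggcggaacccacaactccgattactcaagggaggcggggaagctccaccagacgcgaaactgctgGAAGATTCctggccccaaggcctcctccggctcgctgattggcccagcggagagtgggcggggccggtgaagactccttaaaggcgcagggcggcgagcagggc
Hspb1: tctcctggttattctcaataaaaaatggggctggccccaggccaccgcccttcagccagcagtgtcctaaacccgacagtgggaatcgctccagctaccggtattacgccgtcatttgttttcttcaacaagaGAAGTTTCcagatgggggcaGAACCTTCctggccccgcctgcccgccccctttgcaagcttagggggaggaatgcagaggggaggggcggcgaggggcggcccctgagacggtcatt

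Chaperones of the endoplasmic reticulum did not share that direction. Of 24 genes 19 were higher, with a median of 0.13, and 0 lay beyond 2-fold (1.36% of all genes did). Hspa5, which encodes BiP, was at 308 CPM in VS and 431 in VI (log2 ratio 0.48, 95% interval 0.44 to 0.53). Sdf2l1 (6.73 and 11.4 CPM) and Dnajb9 (36.5 and 57.4 CPM) lay beyond 1.5-fold. Xbp1, a regulator of these genes, had -0.13, and the stress genes Ddit3 and Trib3 of the ATF4 list had -0.29 and -0.70.

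**Figure D5:**
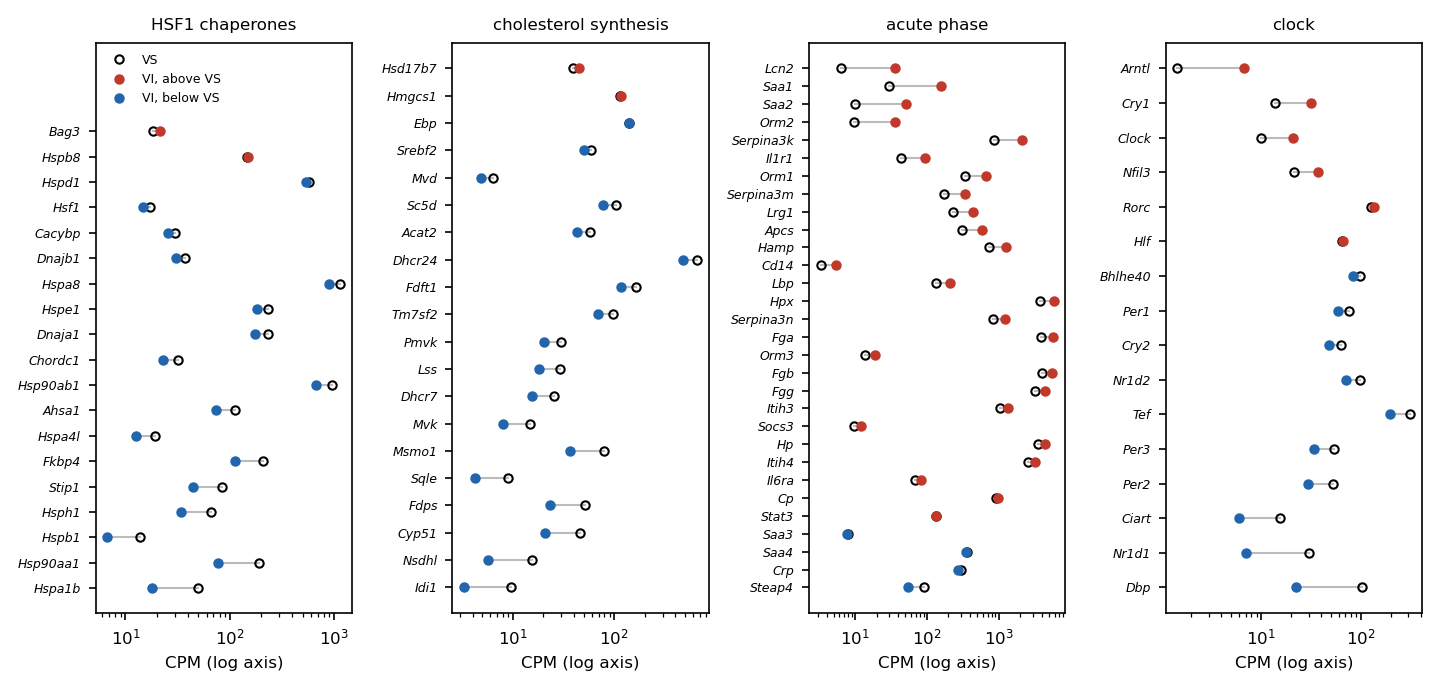
Level of members in VS (open circles) and VI (filled circles, red where above VS, blue where below) on log axes of CPM, for HSF1 chaperones, sterol synthesis, acute phase and clock genes. In the first panel VI lies to the left of VS for 17 of 19 genes, in the second for all genes drawn but Hsd17b7 and Hmgcs1, and in the third to the right for 26 of 30.

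Genes of the p53 and p38 MAPK pathways gave a mixed record. Of 19 genes on the p53 list, which holds Trp53 itself, 13 were higher, with a median of 0.18. Beyond 2-fold lay Cdkn1a, Gadd45g and Ddit4 (0.765% of all genes rose so far). Trp53inp1 (61.7 and 114 CPM) and Plk3 (58.0 and 106 CPM) also lay beyond 1.5-fold (3.39%). The target genes Mdm2 (0.12), Bax (0.09), Ccng1 (-0.30) and Perp (-0.19) lay within that range, and Trp53 itself was at 17.1 and 15.9 CPM. Among 12 genes of the p38 pathway 0 lay beyond 1.5-fold (6.78% of all genes did). Of the 12, 8 were higher and 4 lower, with a median of 0.14. Mapk14, which encodes p38α, was at 81.9 and 88.5 CPM, and Mapkapk2, the kinase it activates, at 59.9 and 81.5.

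The clock genes fell into the opposed phases known for them. In the Dbp and Per phase 10 of 11 genes were lower in VI, with a median of -0.67, and 3 fell beyond 2-fold (0.599% of all genes did). Dbp, an output transcription factor, fell from 102 to 22.3 CPM, and the repressor Nr1d1 from 30.0 to 7.11 CPM. Ciart fell from 369 to 146 reads (log2 ratio -1.38), and Per2, Per3 and Tef had -0.84, -0.70 and -0.67. In the opposite phase all 5 genes were higher, 3 beyond 2-fold (0.765% of all genes were). Arntl, the BMAL1 activator, rose from 1.44 to 6.66 CPM (34 and 162 reads), its partner Clock from 9.99 to 20.7 and Cry1 from 13.8 to 31.6. Nfil3, which opposes DBP at shared sites, had 0.80. A Reactome circadian clock set of 25 genes had 15 lower and a median of -0.04. No source used here gives the time of day at which each group was collected, and collection time and training cannot be told apart.

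CLOCK and BMAL1 bind the E-box CACGTG, which was in 3 of 9 promoters of the Dbp and Per phase (33.3%), in 1 of 4 of the Arntl phase and in 10.6% of all 7162. The core TNGGTCA, to which ROR activators and the NR1D1 repressor bind, was in 2 of 4 promoters of the Arntl phase, in 3 of 9 of the Dbp and Per phase and in 10.5% of all. Ciart and Arntl are shown since each holds several matches, in capitals (Ciart, 3 E-boxes, chr3:95882252-95882478, minus strand; Arntl, 2 cores, chr7:113207215-113207464, plus strand).
Ciart: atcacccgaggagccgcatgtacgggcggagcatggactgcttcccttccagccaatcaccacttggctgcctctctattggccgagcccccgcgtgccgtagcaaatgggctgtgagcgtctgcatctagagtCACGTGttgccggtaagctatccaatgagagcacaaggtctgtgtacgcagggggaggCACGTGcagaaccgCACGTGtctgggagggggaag
Arntl: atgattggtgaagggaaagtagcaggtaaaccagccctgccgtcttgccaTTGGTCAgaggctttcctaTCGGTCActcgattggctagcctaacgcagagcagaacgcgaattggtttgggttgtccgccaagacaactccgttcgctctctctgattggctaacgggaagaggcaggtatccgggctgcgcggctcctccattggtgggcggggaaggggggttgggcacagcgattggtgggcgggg

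Drug-metabolising and sex-biased enzymes changed by gene rather than by family. Of 39 cytochrome P450 genes of families 1 to 3, 24 were lower, with a median of -0.11. Yet 4 rose beyond 2-fold (0.765% of all genes did) and 0 fell beyond it (0.599%). Cyp2b10, the classic target of the receptor CAR, rose from 11.2 to 31.5 CPM, and Cyp3a11, abundant and PXR-responsive, was at 4281 and 6203. Cyp2c40 and Cyp2c69, which are near-identical copies, rose from 22.9 to 52.1 and from 7.49 to 17.6 CPM. Of 29 female-biased liver genes, 5 rose beyond 2-fold (0.765% of all genes did) and 3 fell beyond it (0.599%), the 3 being sulfotransferases. Cyp17a1 (1.25), A1bg (1.38) and Cyp3a16 (0.87) were higher, and Hao2 (-0.91) and Cyp2b13 (-0.99) lower. The male-biased list had 8 of 13 genes higher and 1 beyond 2-fold (Serpina4-ps1), against 0.765% of all genes.

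Major urinary protein genes were lower for 7 of 9, 6 of them beyond 2-fold (0.599% of all genes were), with a median of -1.84. Those 6 are copies of low level, such as Mup9 (26.6 and 7.27 CPM) and 4 pseudogenes, and reads may be split among the cluster. Over the members with 5 CPM in both libraries the median was -0.17. Mup3, which carries most of the family's reads, was at 953 and 1112 CPM and Mup20 at 8.68 and 11.1. Glutathione transferases were lower for 14 of 17 with a median of -0.19, and Gstp1 stood against them at 120 and 205 CPM.

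Genes expressed in zones of the liver lobule had medians on opposite sides of 0. Of 14 pericentral genes 10 were lower (median -0.34), 2 beyond 1.5-fold (3.38% of all genes were). Of 16 periportal genes 10 were higher (median 0.33), 4 beyond 1.5-fold (3.39%). Ass1, Sds and Cdh1 (3.13 and 5.79 CPM) led the periportal genes. Rhbg, an ammonia transporter, and Nkd1, a Wnt feedback gene, had the lowest pericentral values (-0.73 and -0.69). The pericentral markers Glul (0.01), Oat (0.02) and Axin2 (0.18) were level or slightly higher.

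Among the receptors of hormones, Lepr and Egfr rose, the latter from 47.3 to 114 CPM, while Gcgr, the glucagon receptor, was at 351 and 274. Of the secreted hepatokines, Igfbp1 and Fst (2.96 and 5.96 CPM) rose and Inhbe fell from 42.0 to 20.3. Fgf21 was at 7.28 and 6.37 CPM. Ctsl, which encodes the lysosomal protease cathepsin L, rose from 509 to 1219 CPM. It was the single 1 of 22 lysosome and autophagy genes beyond 1.5-fold (6.78% of all genes were). Matrix and stellate genes were lower for 12 of 14 (median -0.23), none of them beyond 1.5-fold (6.78% of all genes were). Cyclin D1 (Ccnd1) fell from 34.4 to 15.8 CPM.

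Of 22 apolipoprotein and lipoprotein genes 20 lay within 1.5-fold, as did 8404 of all 9015 genes. The median of the 22 was -0.07. Apoa2, the amyloid precursor of this line, was at 8480 CPM in VS and 6590 in VI (log2 ratio -0.36). By quantitative PCR on individual mice, the study reports liver Apoa2 mRNA unaffected by exercise. Apoa1, the main protein of high-density lipoprotein, was at 13121 and 12202 CPM. The largest losses in CPM, besides those named, were Apoe, Cyp2e1, Ttr, Acaa1b and Yam1, with log2 ratios from -0.62 to -0.09. The gains included Cyp3a11, Pzp and Ass1. Ribosomal protein genes were higher for 60 of 77 but by a median of 0.05, with 0 beyond 1.5-fold (6.78% of all genes were). Proteasome (-0.07), NRF2 target (-0.05), MHC (-0.09) and interferon (-0.01) genes had medians near that of all genes.

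The fibril-treated pair, FI over FS, shares no library with VI and VS, and its values are set beside them as a description, scaled over all 4 libraries. Of the 69 genes that rose in VI, 63 had a ratio above 0 in FI over FS (51.5% of all genes had), Krt4 and Krt13 with 0 reads in both among them, and 26 rose by more than 2-fold (0.788%). Of the 54 that fell, 46 were lower in FI (48.5%) and 31 by more than 2-fold (1.09%). Sterol synthesis was lower in both pairs, with medians of -0.49 and -0.70. Among the leading genes, the ratios in VI over VS and in FI over FS were 2.19 and 2.06 for Arntl, 1.84 and 1.86 for Lepr, -2.20 and -1.66 for Dbp and -3.07 and -3.27 for Sult2a1, but 2.65 and 0.87 for Cdkn1a and 1.89 and -0.61 for Orm2.

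Other groups had unlike values in the fibril-treated pair. HSF1 chaperones had a median of -0.49 in VI over VS and 0.15 in FI over FS, and ER chaperones 0.13 and -0.39. Targets of PPARα had -0.10 and 0.35, with 24 of 26 higher in FI, and acute phase genes 0.55 and 0.17. The Dbp and Per phase had a median of -0.67 in VI over VS and -0.07 in FI over FS, where 4 of its genes were higher and 7 lower, and Ciart had -1.38 and 0.19. The acute phase genes started from different levels: Saa1 was at 945 CPM in FS, and Lcn2 at 367, far above both vehicle libraries. Egfr, Hhex, Ddc and Fgl1, which rose in VI, had -0.01, -0.03, -0.18 and -0.24 in FI over FS. No test of these differences between the pairs was possible.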

How the data were processed

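Livers were homogenised and pooled by group (4 mice each) before library preparation, as the study describes. Per the labels, the submitters' processing notes name fastp 0.23.2, STAR 2.5, HTSeq 0.6.1 and the mm10 build; no source used here gives the strand setting or annotation release. The authors deposited read counts per gene, not normalised, and the same counts as FPKM: all 69722 FPKM values above 0 were recomputed from the deposited counts, lengths and totals within 0.1%.

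Counts of VI and VS were scaled by trimmed mean of M-values factors (edgeR 4.0.16, R 4.3.3) and given as CPM. Genes with 5 CPM or more in VI or VS were kept. Log2 ratios used a prior of 0.5 counts, and exact 95% intervals came from the binomial share of a gene's reads in VI (scipy 1.17.1). They cover counting error only, and reads are not independent molecules. The median half-width was 0.17 on the log2 scale, and 0.33 for the 1662 genes below 10 CPM in both libraries. CPM compares libraries, not genes of different length. A gene was called beyond 2-fold, with 1.5-fold as a second limit. With 1 library a group no p-value was computed. The ratio and interval code was tested on simulated data.

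Named genes were the 20 largest rises and falls by the interval bound nearer 0, the 10 largest changes in CPM each way, members of the 64 gene lists beyond 1.5-fold or at their extremes, and 13 genes of interest in the study; muscle, predicted, clone, ribosomal pseudogene and mitochondrial genes were passed over. Level members are named beside them, and Krt23, Egfr, Hhex, Ddc, Hdc, Fgl1 and the apolipoprotein neighbours were chosen after their values were seen. Members and lists were chosen with earlier results of these data known, so a list's count is a description. Reactome sets (from an R package's example file, 729 sets with 10 to 300 tested genes) were ranked by median only. Promoters were the 250 bases before RefSeq starts in GRCm38.p6, matched by symbol for 7162 of 9015 genes. A gene held a motif if any of its full windows matched, so genes with several starts had more chances. Printed windows leave out bases inside the gene as the deposited table places it, and the motif counts do not. The CCAAT box and TNGGTCA can overlap (401 of 32851 windows). A few list members are counted but not reported here by name.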

Additional observations from a re-analysis of the deposited data

Results flagged for a closer look

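Hspb1 and Krt23, both beyond 2-fold in VI over VS, went beyond 2-fold the other way in FI over FS. With 1 library a group, this difference between the pairs was not tested. Hspb1 was at 13.7 CPM in VS and 6.70 in VI, against 4.81 in FS and 22.2 in FI, which gave log2 ratios of -1.03 (95% counting interval -1.31 to -0.76) and 2.20 (1.93 to 2.48). Krt23, a keratin gene, was at 41.8 CPM in VS and 16.3 in VI, against 4.40 in FS and 13.2 in FI, with log2 ratios of -1.36 (-1.53 to -1.19) and 1.58 (1.29 to 1.89). For both, VS was higher than FS, and for Hspb1 the highest library was FI while for Krt23 it was VS.

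Transcripts of stratified squamous epithelium, most of them under the level filter, summed to 482 reads in VI and 0 in VS. Krtdap, Lgals7, Krt5 and Crct1 had 30, 28, 24 and 23 reads in VI and 0 in the other 3 libraries.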

How the results depend on the processing

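No paired analysis was possible because each group was 1 pooled library; for the same reason no replicate could be left out. The count of genes beyond 2-fold (123, as 69 and 54) changed with the level filter and with the shrinkage of low values. It was 345 (158 higher, 187 lower) at 1 CPM in either library, 81 (35 lower) at 5 CPM in both, 68 (39 and 29) at 20 CPM, 3955 (1990 and 1965) with no filter, 80 (45 and 35) on FPKM with a pseudocount of 1, and 611 (306 and 305) at 1.5-fold. Under the other scalings, a prior of 2 counts, FPKM with a pseudocount of 0.1 and with the muscle list kept it stayed within 1.5 times, and also without the squamous list, an alternative chosen after seeing the data.

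Of the list medians given most room, none changed sign. That of the Arntl phase was 0.73 on FPKM with a pseudocount of 1. The Dbp and Per phase gave -0.55 both at 20 CPM and with no filter. Major urinary proteins gave -0.17 at 5 CPM in both libraries and -0.82 at 20 CPM. With means in place of medians the values were -0.84 for the Dbp and Per phase, -0.37 for lipogenesis, -0.64 for sterol synthesis, -1.29 for major urinary proteins, 0.71 for acute phase and 0.27 for amino acid catabolism. Mean and median differed in sign for hepatocyte markers, cytochrome P450, glycogen and 7 other lists with values near 0. No named gene beyond 2-fold reversed under another scaling, prior or FPKM.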

Other observations

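Neighbouring genes beside the apolipoprotein cluster on chromosome 9 differed together in the vehicle pair. Bud13 (chr9:46283008-46298783) was at 4.74 CPM in VS and 12.6 in VI, and Zpr1 (chr9:46273064-46282643) at 61.3 and 132 CPM, both rises beyond 2-fold. Next to them Apoa5 had a log2 ratio of 0.41 and Apoa4 0.99, whereas Apoc3 and Apoa1 further along had -0.13 and -0.10. In FI over FS, Bud13 and Zpr1 had 0.55 and 0.49. These genes were picked after their values were seen.

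Ddc and Hdc, picked after their values were seen, also rose in VI. Ddc, which makes dopamine and serotonin by decarboxylation, was at 24.8 and 63.2 CPM, and Hdc, which makes histamine, at 6.65 and 17.6. In FI over FS they had log2 ratios of -0.18 and 0.72.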
